A study of Mus musculus with 15 samples.

Results

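The regions described here are stretches of mouse chromatin that carried acetylation of histone H3 lysine 27 (H3K27ac) in 3 pluripotent states and lay away from the starts of protein-coding genes. Overlapping or touching H3K27ac peaks of the 3 states were joined into 70360 union regions. Of these, 14972 had a peak in every state. From them, 1134 regions of 10 kb or more and 4521 narrower regions with a protein-coding gene start within 1 kb were set aside. The remaining 9317 regions, 13.2% of all union regions and 62.2% of those acetylated in every state, are the shared distal regions. They were chosen by their H3K27ac peaks, their width and their distance from protein-coding gene starts. Their H3K27ac values are therefore a description and were not tested. H3K4me1 and sequence were not used in the choice. Position was used through the 1 kb limit alone, and that limit set aside promoters, which were richer in CpG than members.

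The study profiled H3K27ac and H3K4me1 by chromatin immunoprecipitation and sequencing in mouse embryonic stem cells (ESCs) and in 2 kinds of expanded potential stem cell (EPSC). All samples were of 129SV background. ESCs were the J1 line, kept in serum with LIF and the inhibitors CHIR99021 and PD0325901. D-EPSCs were kept in N2B27 and KSR with LIF, CHIR99021, dimethindene maleate and minocycline hydrochloride. L-EPSCs were kept in DMEM/F12 and KSR with LIF, CHIR99021, PD0325901, A-419259, XAV939, JNK inhibitor VIII and SB203580. LIF and CHIR99021 were common to all 3 states. The study obtained both kinds of EPSC by converting ESCs, so each state stands for 1 culture history. Triplets of values below follow the order ESCs, D-EPSCs, L-EPSCs. There were 2 samples per mark and state and 1 input per state, 15 samples in all, but 1 peak list per mark and state was used, so no value below has a replicate check. Peak positions carry no read depth, and a deeper library can give more and wider peaks. The H3K27ac lists held 64342 (ESC), 32782 (D-EPSC) and 26966 (L-EPSC), and the H3K4me1 lists 107222, 102751 and 105306. H3K27ac covered the annotated 5′ ends of 5 of 6 pluripotency markers in each state (Pou5f1, Sox2, Nanog, Klf4 and Zfp42, but not Esrrb) and of 0 of 7 feeder fibroblast markers.

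Enhancers are stretches of DNA that bind transcription factors and raise the activity of genes that may lie far away. Their nucleosomes typically carry H3K4me1, and when the enhancer is active they also carry H3K27ac. Active promoters carry H3K27ac too, but at a CpG-rich promoter H3K4me1 is usually pushed to the flanks, where H3K4me3 gives way to it. In pluripotent cells, factors such as OCT4, SOX2, ESRRB and KLF4 bind distal enhancers of the genes that keep the cells undifferentiated.

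The sequences below show motif matches in members near pluripotency genes. For each listed pluripotency gene the nearest member within 100 kb was taken, and those whose central 500 bp held the octamer ATTTGCAT (the letters bound by OCT4), the ESRRB letters CAAGGTCA or the AP-1 letters TGANTCA on either strand are drawn on here. Each sequence is 100 bases of the mm9 genome around the match, except the Pou5f1 sequence of 200 bases, which is placed around the octamer-SOX composite (TGCAT and ACAA separated by 1 base). That composite lies outside the central 500 bp of its member, and the sequence begins before the member's start. Capitals mark the match. These examples, other than that of Pou5f1, were picked after the motif counts were known.
Sox2 member, octamer, chr3:34567185-34567284, plus strand: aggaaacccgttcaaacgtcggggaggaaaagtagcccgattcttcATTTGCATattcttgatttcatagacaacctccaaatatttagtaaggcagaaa
Klf2 member, ESRRB letters, chr8:74803285-74803384, plus strand: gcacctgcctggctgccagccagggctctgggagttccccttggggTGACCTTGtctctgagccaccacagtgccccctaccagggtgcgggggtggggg
Prdm14 member, AP-1 letters, chr1:13137170-13137269, plus strand: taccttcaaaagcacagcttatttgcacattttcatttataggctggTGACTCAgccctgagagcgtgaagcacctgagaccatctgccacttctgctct
Lin28a member, AP-1 letters, chr4:133567309-133567408, plus strand: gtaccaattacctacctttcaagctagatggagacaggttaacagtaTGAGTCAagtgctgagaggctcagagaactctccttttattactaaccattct
Tet1 member, AP-1 letters, chr10:62324106-62324205, plus strand: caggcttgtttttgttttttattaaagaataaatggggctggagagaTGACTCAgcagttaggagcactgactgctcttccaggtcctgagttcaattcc
Esrrb member, AP-1 letters, chr12:87795791-87795890, plus strand: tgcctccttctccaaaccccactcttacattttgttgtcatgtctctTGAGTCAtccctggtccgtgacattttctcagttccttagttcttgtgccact
Pou5f1 member, octamer-SOX composite, chr17:35651187-35651386, plus strand: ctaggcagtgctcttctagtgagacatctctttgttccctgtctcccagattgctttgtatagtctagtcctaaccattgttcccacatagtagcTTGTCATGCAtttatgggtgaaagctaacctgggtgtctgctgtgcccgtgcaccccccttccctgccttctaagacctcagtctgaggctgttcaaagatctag

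A match is a description of letters and not evidence that a factor bound there. The Sox2 and Klf2 members are intergenic, those of Prdm14, Lin28a, Tet1 and Esrrb lie in introns, and that of Pou5f1 is centred on an exon of Tcf19. The median genome count of words from the centre, described further on as copies, was 3.5 for the Tet1 member and 1 for the others. The Pou5f1 member was the only member within 100 kb of any listed pluripotency gene that held the composite anywhere in its width.

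In their H3K27ac, the members were wide in ESCs and narrower in both EPSC states. The median union width was 2948 bp, with the middle 50% between 1768 and 4771 bp. A median of 2566 bp of a member was acetylated (ESC), 1436 bp (D-EPSC) and 1119 bp (L-EPSC). ESCs had the most acetylated bases in 6663 members (71.5%), D-EPSCs in 1685 and L-EPSCs in 966. The order ESC above D-EPSC above L-EPSC was found in 4102 members, and both EPSC states exceeded ESCs in 1037. The ESC peak alone spanned the whole union width in 4356 members (46.8%), against 717 for D-EPSCs and 379 for L-EPSCs. The longer ESC list moves with these widths, and its part in them was not tested.

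The acetylated parts of the 3 states usually met in 1 stretch. At least 1 base lay under a peak of all 3 states in 9000 members, and in the other 317 the peaks were linked only through the union. The median number of bases under all 3 lists was 730. A member held 1 peak in 8561 cases in ESCs, in 7819 in D-EPSCs and in 7552 in L-EPSCs. Members that were wide in 1 state tended to be wide in another. Over the 9317 members, Spearman's rho of acetylated bases was 0.53 between ESCs and D-EPSCs, 0.52 between ESCs and L-EPSCs and 0.62 between the EPSC states, a description over members that share their 3 lists.

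**Figure D1:**
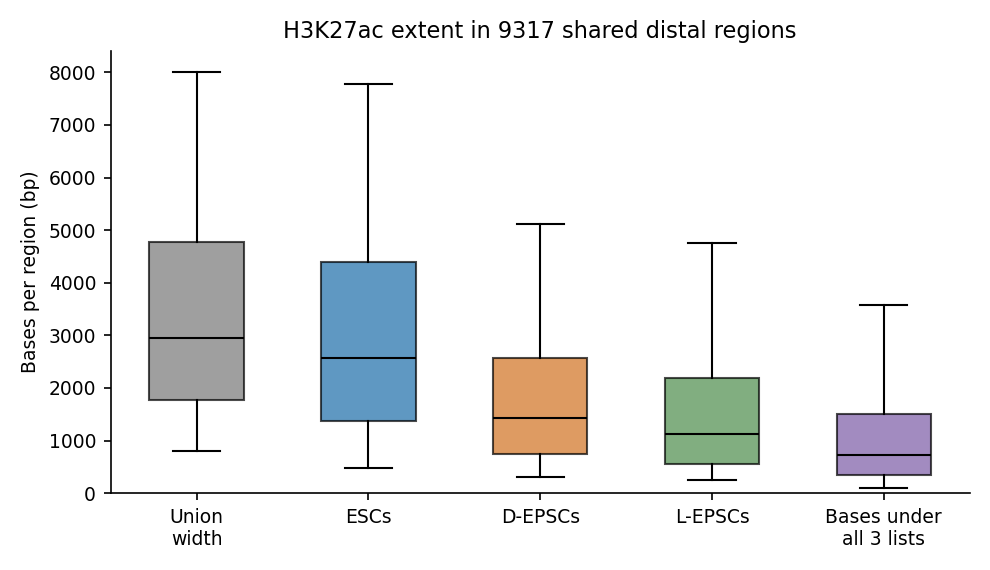
Bases per shared distal region (y axis, bp) for the union of the 3 lists, for each state and for the bases under all 3 lists, over 9317 regions. Lines are medians, boxes the middle 50% and whiskers the 5th and 95th percentiles over regions. The median falls from 2566 bp (ESC) to 1436 bp (D-EPSC) and 1119 bp (L-EPSC), and 730 bp lie under all 3 lists.

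At the width limit, acetylated bases follow from the definition. The 217 members of 9 to 10 kb had a median of 9314 acetylated bp (ESC), 4690 (D-EPSC) and 4294 (L-EPSC). The 172 distal regions of 10 to 11 kb that fell outside had 10324, 5089.5 and 5066 bp. H3K4me1, which took no part in the definition, lay over the centre base in 89.4% (ESC), 97.2% (D-EPSC) and 96.3% (L-EPSC) of the former and in 91.9%, 97.1% and 96.5% of the latter. At the start-site limit the values differed more. The centre base lay under an H3K4me1 peak in ESCs in 73.8% of the 122 members with a gene start just over 1 and up to 1.5 kb away, and in 51.9% of the 104 shared regions with one over 500 and up to 1000 bp away.

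The 10 members with the longest stretch under a peak in all 3 states ranged from 6963 to 7945 bp of common acetylation. The longest, chr17:35620971-35629709, lay between genes 13273 bp from the 5′ end of Pou5f1, which encodes OCT4. It had 8739 acetylated bp (ESC), 8001 (D-EPSC) and 8151 (L-EPSC). The next, chr9:78205672-78214504, lay 1480 bp from the start of Dppa5a, a gene known for its expression in pluripotent cells, with 8794, 7962 and 8201 bp. Both were nearly as wide in EPSCs as in ESCs, which a ranking by common acetylation favours. Other members of this group lay 232606 bp from Tle4, 326083 bp from Dio3, and within Hps5, Ninl, Capsl and Ddx60. The 10th, chr17:34033893-34041916, lay 4443 bp from the start of Daxx, an H3.3 chaperone component. All 10 had H3K4me1 in every state, but at chr4:133365697-133374277 the centre base was free of it in all 3. That centre was also the most CpG-rich of the 10, with 74.6% GC.

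H3K4me1 accompanied the great majority of members. In ESCs, 92.2% of them overlapped a peak of H3K4me1, with a 95% Wilson interval of 91.6 to 92.7. For D-EPSCs the share was 94.4% (93.9 to 94.8). For L-EPSCs it was 94.9% (94.5 to 95.4). The intervals cover counting error only, and neighbouring regions are not independent. Over all 70360 union regions the shares were 79.6% (ESC), 73.1% (D-EPSC) and 72.3% (L-EPSC). In 8388 members (90.0%) all 3 states had H3K4me1, against 61.6% of all union regions. Shares of overlap rise with the width of a region, and members are wider than most union regions, so the centre base was also compared. It lay under H3K4me1 in 79.6% of members (ESC), 87.3% (D-EPSC) and 88.5% (L-EPSC), against 67.9%, 59.9% and 58.5% of all union regions. In members this share also rose with width, from 46.9% (ESC), 63.1% (D-EPSC) and 69.8% (L-EPSC) under 1 kb. At 4 to 10 kb it was 89.0%, 94.8% and 95.8%. The comparison at the centre base therefore does not set width aside. The order of the states in overlap differed with the lists used. The longer H3K27ac lists were also cut to their widest peaks, so that all 3 had equal length. The shares were then 97.0%, 97.3% and 96.7%, so L-EPSCs came lowest. That cut keeps the widest ESC peaks, and shares rise with width, so it does not separate list length from width.

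Around the centre, members and promoters had opposite H3K4me1 profiles. In members, coverage was highest at or within 50 bp of the centre in each state and fell on both sides. At 1 kb from the centre, averaged over both sides, it was 68.8% (ESC), 65.9% (D-EPSC) and 64.9% (L-EPSC), and at 5 kb 35.8%, 29.0% and 27.2%. Shared promoters had 15.3% at the centre (ESC), 29.0% (D-EPSC) and 37.4% (L-EPSC). Their coverage rose to 65.3%, 74.4% and 76.3% at 1600, 1100 and 950 bp from it. ESC-only distal regions had a central maximum like members, of 76.1% in ESCs, but 52.6% in D-EPSCs and 47.7% in L-EPSCs. H3K4me1 in the EPSC states was therefore more frequent at members than at regions acetylated in ESCs alone, by 34.7 and 40.8 percentage points at the centre base.

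**Figure D2:**
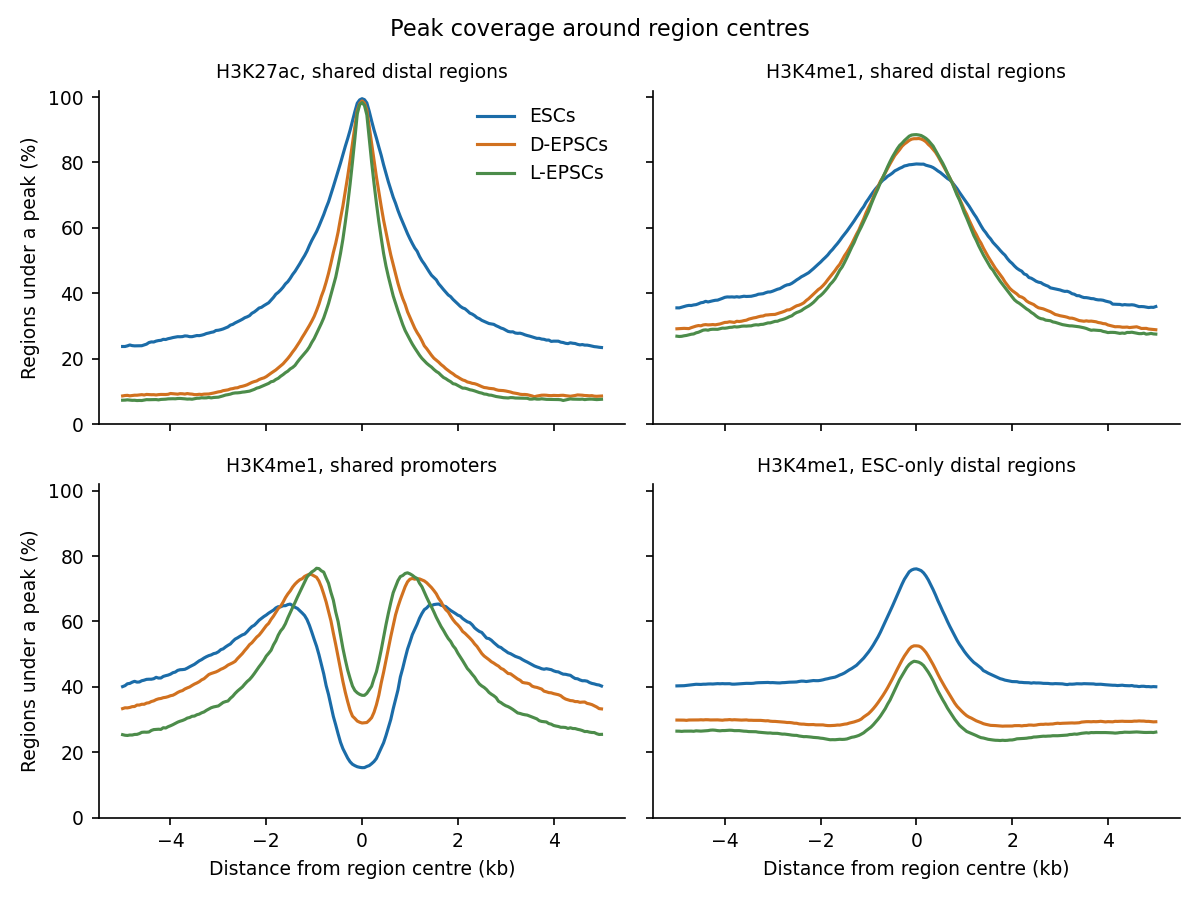
Percent of regions under a peak (y axis) against distance from the region centre (x axis, kb), in steps of 50 bp, 1 line per state. The centre is the middle of the longest stretch under the most H3K27ac lists, so the H3K27ac maximum at 0 follows from the definition. H3K4me1 peaks at the centre of members (79.6% to 88.5%) and dips at the centre of shared promoters (15.3% to 37.4%).

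The comparison with ESC-only regions depended on width. Among regions under 1 kb, the centre base had H3K4me1 in ESCs in 46.9% of 789 members and in 71.2% of 25657 ESC-only regions. In L-EPSCs the shares were 69.8% and 43.6%. Among regions of 2 to 4 kb, ESCs had 84.1% in 3357 members and 92.7% in 2481 ESC-only regions, and L-EPSCs 90.7% and 63.3%. Width here is union width, which in ESC-only regions is that of the ESC peak, so ESC peak widths were not matched. Members under 1 kb had medians of 735 bp of union width and 567 acetylated bp in ESCs. Sequence with 10 or more copies, described further on, made up 14.8% of them, against 0.910% of all ESC-only regions. Its part was not tested. At every union width compared, H3K4me1 in ESCs was less frequent at members than at ESC-only regions, and in both EPSC states it was more frequent. Over all members it rose with width in overlap, from 57.5% (ESC), 71.5% (D-EPSC) and 79.2% (L-EPSC) under 1 kb to 99.9% (ESC), all 1377 members (D-EPSC) and 99.9% (L-EPSC) at 6 to 10 kb.

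H3K4me1 at the centre was less frequent in CpG-rich members. The CpG ratio is the number of CpG dinucleotides in the central 500 bp over the number that its C and G content would give, and CpG islands have a high ratio. It had a median of 0.23 in members and 0.79 in shared promoters. In the 3762 members with a ratio of 0.2 to 0.4, the centre lay under H3K4me1 in 86.8% (ESC), 93.5% (D-EPSC) and 93.6% (L-EPSC). At 0.4 to 0.6 the shares in 1046 members were 56.1%, 79.5% and 85.7%. At 0.6 and above they were 13.0%, 36.8% and 45.8% in 568 members. The fall was steepest in ESCs. Sequence with 10 or more copies in the genome, described further on, made up 11.8% of the members at 0.4 to 0.6. Among members with copies under 2, the shares at 0.4 to 0.6 were 64.7% (ESC), 90.1% (D-EPSC) and 93.8% (L-EPSC), against 87.4%, 94.1% and 94.0% at 0.2 to 0.4. With copies under 2, the fall in this class was thus seen mainly in ESCs. At 0.6 and above, the 514 such members had 14.0%, 39.1% and 46.7%. Overlap anywhere in these CpG-rich members was still 71.7%, 86.3% and 90.5%, so in many of them H3K4me1 lay beside the centre.

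CpG-rich members often lay at starts that the definition did not use. Within 1 kb of 293 of the 568 (51.6%) the annotation has the 5′ end of some transcript, either another transcript of a protein-coding gene or one of another gene type. Over all members this was so for 1252 (13.4%), of which 789 had a further start of a protein-coding gene and 518 one of another gene type. CpG-rich members with a transcript start had H3K4me1 at the centre in 6.83% (ESC), 27.6% (D-EPSC) and 36.9% (L-EPSC). The 275 without one had 19.6%, 46.5% and 55.3%, nearer to them than to the 6923 members with a ratio under 0.4 and no start (87.7%, 91.7% and 91.9%). Among members with a ratio under 0.4, a transcript start within 1 kb made little difference, with 87.3%, 95.3% and 93.5% in 780 members. The low H3K4me1 moved with CpG content more than with an annotated start.

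**Figure D3:**
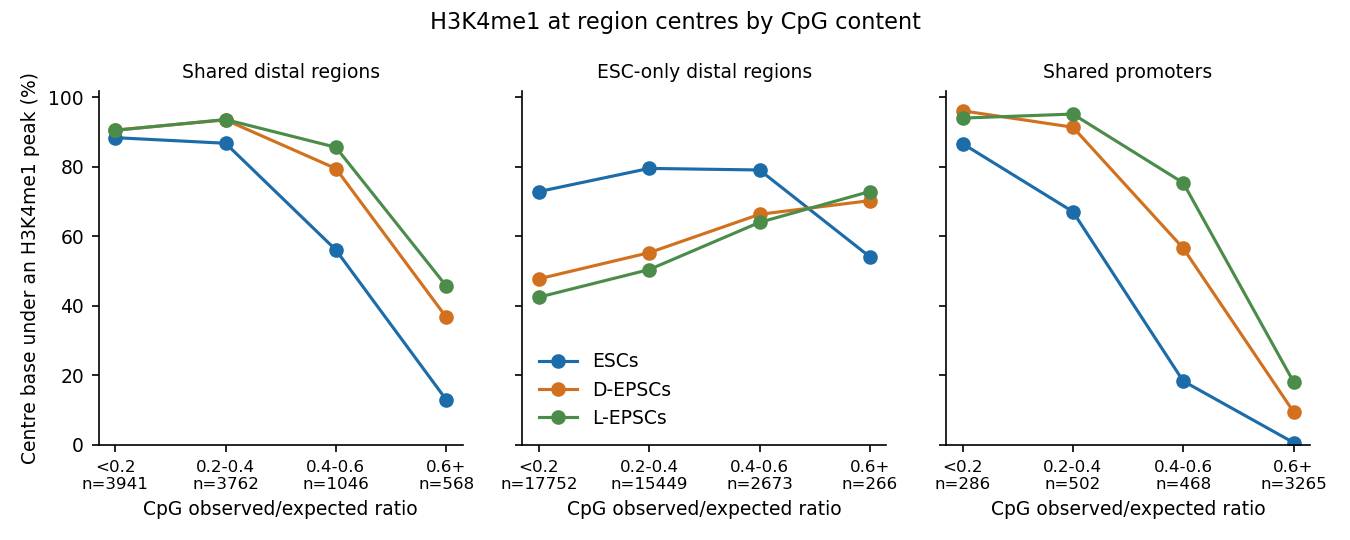
Percent of regions whose centre base lay under an H3K4me1 peak (y axis) by CpG observed/expected ratio of the central 500 bp (x axis, with the number of regions), 1 line per state. In members the ESC share falls from 88.4% to 13.0% from the lowest to the highest ratio, and the D-EPSC and L-EPSC points nearly coincide below 0.4. ESC-only regions show no such fall in EPSCs.

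Members that lacked H3K4me1 were few and narrow. In 288 members (3.09%) no state had an H3K4me1 peak, with a median width of 1018.5 bp. H3K4me1 was in L-EPSCs alone in 135 members, in both EPSC states without ESCs in 267, in ESCs alone in 44 and in D-EPSCs alone in 41. Absence of a peak says that none was called and not that the mark was absent. The 5 members without H3K4me1 that had the longest common acetylation ranged from 1175 to 1368 bp of it. The longest was chr11:94134516-94137343, between genes 27197 bp from the start of Wfikkn2, with 2828 acetylated bp (ESC), 1563 (D-EPSC) and 1552 (L-EPSC). The next, chr6:112612745-112615478, lay in an intron of Rad18, a DNA repair ubiquitin ligase, with 2613, 2349 and 1343 bp. Others lay in introns of 4930519F16Rik and Zfp407. The last, chr6:122588647-122592330, was the member nearest to Dppa3, a maternal factor gene expressed in naive pluripotent cells, at 12219 bp from its start. It had 3684 acetylated bp (ESC), 1375 (D-EPSC) and 1232 (L-EPSC). The central 200 bases of the leading pair are given to show regions with acetylation and no H3K4me1. Both had copies of 1, a median count of words defined in the next paragraph. Capitals would mark the YY1 letters AAGATGGCG, which neither holds.
Member near Wfikkn2, chr11:94135946-94136145, plus strand: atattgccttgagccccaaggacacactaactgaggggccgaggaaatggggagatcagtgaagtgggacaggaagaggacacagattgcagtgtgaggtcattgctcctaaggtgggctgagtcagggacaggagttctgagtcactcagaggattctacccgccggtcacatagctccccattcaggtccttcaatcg
Member in a Rad18 intron, chr6:112614192-112614391, plus strand: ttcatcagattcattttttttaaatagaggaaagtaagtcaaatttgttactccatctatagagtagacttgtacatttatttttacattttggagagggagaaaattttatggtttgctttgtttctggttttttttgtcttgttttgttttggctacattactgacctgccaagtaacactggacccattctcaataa

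Some of the other members without H3K4me1 consisted of sequence that is repeated in the genome. For each region, words of 31 bases were taken from the central 500 bp and their occurrences in the genome counted, and the median over words is called its copies. Copies were 10 or more in 213 members (2.29%), against 1.37% of all union regions. Among the 288 members without H3K4me1 it was 79 (27.4%), among the 135 with H3K4me1 in L-EPSCs alone 41 (30.4%), and among the 8388 with H3K4me1 in every state 66 (0.787%). H3K4me1 overlapped 94.0% of the 8870 members with copies under 2 (ESC), 95.9% (D-EPSC) and 95.8% (L-EPSC). In the 129 members with 100 copies or more it was 17.8%, 25.6% and 49.6%. Those 129 were short, with a median width of 706 bp, GC-rich, at 61.6%, and far from genes, at a median of 96232 bp from a start site. Their acetylated extent was alike in the 3 states, with medians of 621 bp (ESC), 571 (D-EPSC) and 601 (L-EPSC). Reads from repeated sequence may not be placed uniquely, the stated methods name no filter on mapping quality for these libraries, and the part of read placement in these peaks was not tested.

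**Figure D4:**
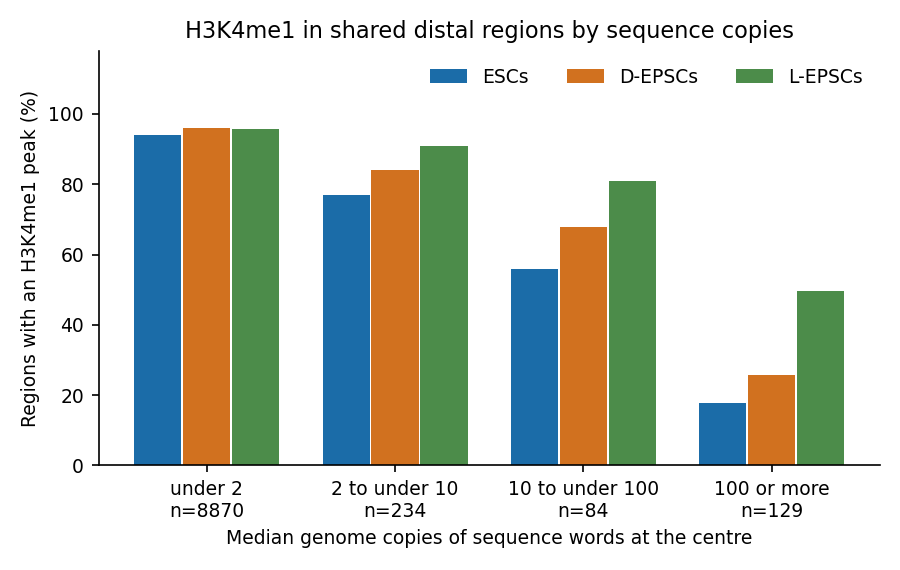
Percent of members with an H3K4me1 peak (y axis) by median genome copies of words in the central 500 bp (x axis, with the number of members), 1 bar per state. From under 2 copies to 100 or more, the share falls from 94.0% to 17.8% in ESCs and from 95.8% to 49.6% in L-EPSCs.

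Many of the repeated members shared a word. A word of 20 bases, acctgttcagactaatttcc, stood in the central 500 bp of 104 of the 129 members with 100 copies or more and of 151 members in all. It occurs 8054 times on chromosomes 1 to 19 and X, counting both strands. Of the 151 members, 144 also held the letters AAGATGGCG, which match the site of the factor YY1. H3K4me1 was absent in every state from 76 (50.3%) of them, present in L-EPSCs alone in 36 and in all states in 19. The word stood in 1.62% of members, in 0.138% of ESC-only distal regions (50) and in 7.11% of the 999 distal regions acetylated in both EPSC states but not ESCs (71). Stretches of 120 bases are shown for the 3 members with the longest common acetylation that hold the word near AAGATGGCG, which is in capitals, each written in the direction of the word. The set was chosen after the word was found.
Intergenic member near Gm10029, chr13:6673582-6673701, plus strand: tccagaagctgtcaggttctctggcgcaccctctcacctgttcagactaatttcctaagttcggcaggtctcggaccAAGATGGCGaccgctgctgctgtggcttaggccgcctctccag
Member in an Lmbr1 intron, chr5:29682696-29682815, plus strand: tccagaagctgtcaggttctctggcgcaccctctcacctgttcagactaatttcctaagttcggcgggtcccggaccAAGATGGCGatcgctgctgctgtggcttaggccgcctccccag
Member in an intron, nearest start Chac2, chr11:30935685-30935804, minus strand: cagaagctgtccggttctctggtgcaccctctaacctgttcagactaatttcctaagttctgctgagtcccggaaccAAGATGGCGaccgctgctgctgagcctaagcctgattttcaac

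The stretches near Gm10029 and in Lmbr1 had 116 of 120 bases in common, position by position without gaps. The stretch nearest to Chac2 had 56 and 54 of 120 in common with them, counted in the same way. The shared word starts earlier in that stretch than in the others, so a count without gaps understates how alike they are. The member nearest to Chac2 had copies of 1, with 1588 acetylated bp (ESC), 1119 (D-EPSC) and 1552 (L-EPSC). It had H3K4me1 over 944 bp (D-EPSC) and 744 bp (L-EPSC) but none in ESCs. The one near Gm10029 had 2033 acetylated bp (ESC), 1443 (D-EPSC) and 1790 (L-EPSC), and H3K4me1 over 1012 bp in L-EPSCs only. The one in Lmbr1 had 1275, 1145 and 1366 acetylated bp and no H3K4me1 in any state. The source of the repeat is not named here.

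Most members lay in intergenic sequence or introns, often far from any gene start. The median distance to the nearest protein-coding start was 27572 bp, and 1556 members (16.7%) were more than 100 kb away. The centre was intergenic in 4713 members (50.6%), in an intron in 4181 (44.9%) and in an exon in 423 (4.54%) of protein-coding genes. Of the ESC-only distal regions, 37.5% were intergenic and the median distance was 22223.5 bp. Of the 7 distance classes compared, H3K4me1 overlap was lowest in each state beyond 100 kb. It was 92.9% (ESC), 96.4% (D-EPSC) and 97.0% (L-EPSC) for the 394 members within 2.5 kb, and 87.9%, 91.5% and 93.6% for the 1556 members beyond 100 kb. In ESCs the highest share was 94.8%, at 2.5 to 5 kb. Copies were 10 or more in 5.91% of the members beyond 100 kb and in 0.761% to 2.08% of those at shorter distances, and their part in the lower shares was not tested. At the centre base, the shares within 2.5 kb were 76.1%, 86.5% and 89.1%, and those beyond 100 kb 77.6%, 85.6% and 89.4%. The autosomes held 2.92 to 5.57 members per Mb, with chromosome 11 highest, and chromosome X 0.582 per Mb. As a share of all union regions, however, members made up 11.7% on chromosome X and 11.3% to 15.9% on the autosomes, so the low density there was common to acetylated regions in general.

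Some members lay close to each other along the chromosomes. When members with gaps of at most 12.5 kb were grouped, 3672 (39.4%) fell into 1500 clusters of 2 or more and 5645 stood alone. Other regions were not grouped in this way. The largest cluster held 12 members over 95.2 kb at chr6:37672975-37768127, with no gene in it and the nearest start, that of Trim24, 52683 bp away. Its members had 34045 acetylated bp (ESC), 35707 (D-EPSC) and 35465 (L-EPSC), and H3K4me1 overlapped 9 of the 12 (ESC), 11 (D-EPSC) and 12 (L-EPSC). A cluster of 9 at chr3:135216460-135268893 ran over Manba and Nfkb1, which encodes an NF-kappaB subunit, with 16872, 17012 and 12201 bp. The cluster of 8 at chr6:144994523-145055984 included the start of Bcat1, a branched-chain amino acid transaminase, with 34862 bp (ESC), 14010 (D-EPSC) and 15460 (L-EPSC). Other clusters of 8 lay 5125 bp from the start of Mta3, with 30737, 20709 and 13468 bp, and 9667 bp from Tpd52, with 27443, 20829 and 13369 bp. The cluster near Trim24 and that at Nfkb1 were thus as extensive in D-EPSCs as in ESCs, whereas the cluster at Bcat1 had fewer acetylated bases in both EPSC states.

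Most genes of the core and naive pluripotency network had members nearby. A member lay within 50 kb of the 5′ end of 14 of 20 of them (70.0%), against 8186 of 22350 protein-coding genes (36.6%), with a median of 2 members against 0. Nanog had 6 members within 50 kb, Pou5f1 5, Tbx3 4, and Sox2, Klf2, Prdm14, Mycn and Dppa3 3 each. Esrrb, Klf5 and Sall4 had a member only between 50 and 100 kb, and Nr5a2, Tfcp2l1 and Nr0b1 had none within 100 kb. Gene lists were chosen with earlier results known and are described by counts alone.

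Nanog, a homeobox gene of naive pluripotency, had its nearest member 7065 bp away on the downstream side at chr6:122664572-122670122. It had 5551 acetylated bp (ESC), 3684 (D-EPSC) and 2175 (L-EPSC). The Sox2 member, chr3:34562066-34571721, lay 13139 bp downstream of the gene start and had 8978, 6148 and 6809 bp. H3K4me1 covered all of its 9656 bp in both EPSC states and 8047 bp in ESCs. The Pou5f1 member nearest to the gene, chr17:35651250-35652281, lay 8268 bp away over an exon of Tcf19 and had 1032, 486 and 285 bp. Prdm14, which encodes a repressor of differentiation, had 2471, 2304 and 1051 bp at chr1:13135452-13137922, in an intron of Ncoa2. The Tet2 member, chr3:133254163-133255337, was wider in EPSCs, with 793 bp (ESC), 1167 (D-EPSC) and 863 (L-EPSC). Tet2 encodes an enzyme that oxidises 5-methylcytosine.

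Other members of this group had far fewer acetylated bases in EPSCs than in ESCs. Over all members the medians were 2566 bp (ESC), 1436 (D-EPSC) and 1119 (L-EPSC). The part of the longer ESC list in these differences was not tested. The member of Esrrb, an orphan nuclear receptor gene, lay in its own intron at chr12:87792901-87797827 with 4927 acetylated bp (ESC), 668 (D-EPSC) and 617 (L-EPSC). That of Klf5, chr14:99762610-99767421, had 4812, 225 and 492 bp. The Klf2 member, chr8:74800639-74804505, had 3867, 960 and 300 bp. Klf4 had 1235, 299 and 209 bp at chr4:55520944-55522178, and its centre had H3K4me1 in ESCs only. Lin28a, an RNA-binding protein gene, had 4380, 669 and 226 bp in its intron at chr4:133565247-133569626, with H3K4me1 over at least 4218 bp in each state. Of the 17 members nearest to these genes, 16 had H3K4me1 in every state, and the member near Dppa3 had none, a share close to the 90.0% of all members. The Tbx3 member lay in an exon of Tbx3, and the Sall4 member in an exon of Atp9a, 97062 bp from the start of Sall4. Their CpG ratios were 0.65 and 0.44, and their centres had H3K4me1 in both EPSC states and not in ESCs.

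The other gene lists are read against 36.6% of all protein-coding genes with a member within 50 kb, and 12001 of 22350 with one within 100 kb, where the median gene had 1. Signalling components and targets had a member within 50 kb for 12 of 16 genes (75%), with 6 within 100 kb at Id1 and at Smad7 and 5 at Etv5. Formative and primed epiblast genes had one for 8 of 11 (72.7%), with 5 at Otx2 and 4 each at Dnmt3a and Foxd3. Housekeeping genes had one for 9 of 14 (64.3%), with 9 within 100 kb at Rplp0, 5 at Gapdh and 4 at Eef1a1. Extraembryonic lineage genes had one for 4 of 13 (30.8%), led by Tfap2c with 8 within 100 kb, Hand1 with 5 and Gata6 with 3. Feeder fibroblast markers had one for 3 of 10 (30.0%), with 2 within 100 kb at Col1a1, Thy1 and Fn1, and differentiated tissue markers for 2 of 14 (14.3%), led by Myog and Myh6 with 4 each within 100 kb and Apoa1 with 2. Members near a marker gene need not act on it, since a window of 50 kb often holds other genes.

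Among 18 motifs searched as fixed letters on both strands of the central 500 bp, the AP-1 letters TGANTCA were the most frequent in members. They stood in 1965 members (21.1%), against 15.3% of ESC-only distal regions, 8.38% of shared promoters and 16.3% of all union regions. They were the most frequent of the 18 in ESC-only regions and in all union regions too. The motifs differ in how many letters are fixed, so shares of different motifs are not comparable with each other. In the 999 distal regions of both EPSC states without ESCs the share was 19.6%, close to that of members. At every width compared, members held the letters more often than ESC-only regions, from 17.6% against 15.6% under 1 kb to 24.5% against 15.4% at 1 to 2 kb. Along the region, AP-1 letters had 0.471 matches per kb within 250 bp of the centre and 0.298 per kb at 1.5 to 2 kb in members, and 0.334 and 0.303 in ESC-only regions. ESRRB letters rose from 0.0745 per kb in the flanks of members to 0.136 at the centre, and from 0.0766 to 0.114 in ESC-only regions. They stood in 6.50% of members, 5.48% of ESC-only regions and 3.61% of shared promoters. The SOX letters CCATTGT stood in 7.78%, 6.89% and 3.67%, and the KLF letters GGGTGTG in 13.0%, 13.9% and 12.4%.

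The octamer showed no such concentration. It stood in 241 members (2.59%), 2.46% of ESC-only regions and 2.38% of all union regions, with 0.0555 matches per kb at the centre of members and 0.0645 in the flanks. The octamer-SOX composite, whose letters can overlap an octamer or SOX match, stood in 38 members (0.408%), 0.365% of ESC-only regions and 0.349% of the 500-bp windows around all protein-coding starts. Exact letters miss the variants that these factors also bind, so a low share says little about their binding. Letters common at promoters were rarer in members than there. The TFAP2 letters GCCNNNGGC stood in 16.0% of members, 39.2% of shared promoters and 12.6% of ESC-only regions. The ETS letters ACTTCCGG stood in 1.34%, 7.83% and 0.636%, and the NRF1 letters GCGCATGCG in 0.397%, 3.01% and 0.149%. These letters were thus more frequent in members than in ESC-only regions. Centres with a CpG ratio of 0.6 or more were too, at 6.10% of members and 0.736% of ESC-only regions. Their part in these motif shares was not tested. TFAP2 letters rose from 0.197 matches per kb in the flanks of members to 0.374 at the centre, and from 0.216 to 0.283 in ESC-only regions. The TCF/LEF letters ATCAAAG stood in 6.36% of members and 7.92% of ESC-only regions.

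The YY1 letters AAGATGGCG stood in 266 members (2.86%), 0.374% of ESC-only regions and 1.60% of all union regions. Of these members, 111 were among the 129 with 100 copies or more. The letters were more frequent in shared promoters (6.22%) and in distal regions acetylated in both EPSC states but not ESCs (8.31%) than in members, and stood in 2.87% of all protein-coding start windows. Copies under 2 did not exclude the shared word, which 17 of the 8870 members of that kind held. In the 8853 members with copies under 2 and without the word the YY1 share was 1.08%, against 0.258% of such ESC-only regions, 1.05% of such regions of both EPSC states and 6.24% of such promoters. These last shares were computed after seeing the data. The other motifs were STAT (TTCCNGGAA, 2.38% of members), PRDM14 (GGTCTCTAA, 0.354%), CTCF (AGGGGGCGC, 0.440%), TEAD (ACATTCC, 7.38%), T-box (AGGTGTGA, 2.02%), the GATA factors (letters AGATAAG, 5.75%) and the E-box (CACGTG, 8.61%). Over all union regions their shares were 1.95%, 0.394%, 0.463%, 6.99%, 2.199%, 5.59% and 8.40%.

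**Figure D5:**
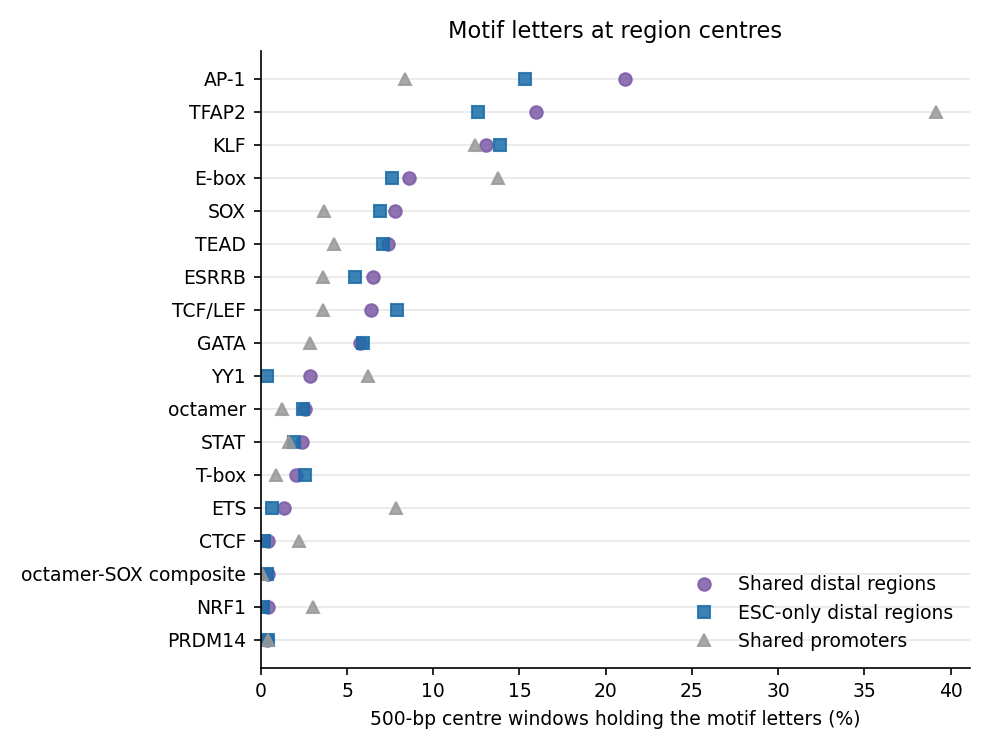
Percent of 500-bp centre windows that hold each motif's letters on either strand (x axis) for members, ESC-only distal regions and shared promoters, with motifs ordered by their share in members (y axis). AP-1 letters are at 21.1% in members, 15.3% in ESC-only regions and 8.38% in shared promoters, and TFAP2 letters are highest in promoters at 39.2%.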

How the data were processed

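H3K27ac and H3K4me1 were measured by ChIP-seq in ESCs, D-EPSCs and L-EPSCs. Per the study's methods the authors aligned reads to mm9 with bowtie2 (version 2.3.5), processed them with SAMtools (version 1.10) and used the broad mode of MACS2, with input as the control, to call peaks. The thresholds, and whether replicates were pooled, are not given in the sources used here. The deposited lists hold peak positions only, with no counts, scores or depth. Sample labels gave the groups, and the state and mark in a list's name gave its place.

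Union regions joined overlapping or touching H3K27ac peaks. Gene starts were taken as the 5′ end of each of 22350 protein-coding genes in GENCODE M1, built on mm9. A peak of H3K4me1 counted with at least 1 bp of overlap. The centre of a region was the middle of its longest stretch under the most lists. Motifs, GC and CpG ratios were read from the central 500 bp. Copies were the median genome occurrences of 10 words of 31 bases. Coordinates are 1-based. With 1 list per mark and state no test was made.

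The members, gene lists and motifs were chosen with earlier results of these data known. Of 100 listed genes, 98 were matched. Named regions were the member nearest to each core or naive gene within 100 kb, the 10 members with the longest common run, the 5 clusters with the most members and the 5 members without H3K4me1 that had the longest common run. Of the other lists, the 3 genes with the most members within 100 kb were named. The counts of sequence copies, the shared word, the YY1 shares without it and the CpG classes were added after seeing the data. The functions for union regions, overlaps, runs, distances, motif matches and word copies were tested on simulated intervals and sequences against base-by-base counts. Python 3.11.15, numpy 2.4.6 and pysam were used, and matplotlib 3.10.9 for the figures.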

Additional observations from a re-analysis of the deposited data

How the results depend on the processing

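The number of members, 9317, stayed within 1.5 times under 11 of 13 settings. It was 4522 with the widest 50% of each H3K27ac list and 1362 with H3K27ac lists of equal covered bases, which keep few ESC peaks. Shares of members with H3K4me1 are given for ESCs, D-EPSCs, L-EPSCs and all states together. They were 94.3%, 96.1%, 96.3% and 92.4% with peaks of at least 500 bp, 91.4%, 93.9%, 94.5% and 89.3% with regions joined over 1 kb and 89.9%, 92.8%, 93.5% and 87.2% under 5000 bp of width. With H3K27ac lists of equal length they were 97.0%, 97.3%, 96.7% and 94.96%, with equal covered bases 99.9%, 99.9%, 99.8% and 99.6%, and with the widest 50% 97.5%, 98.6%, 98.2% and 96.4%. The lists of equal length and of equal covered bases put L-EPSCs lowest, and the cause was not tested. Both settings cut the larger lists to their widest peaks, so they select for width. A peak over at least 50% of the region gave 80.9%, 82.8%, 83.6% and 70.4%, within 1 kb 94.4%, 95.6%, 95.8% and 92.3% and over the centre base 79.6%, 87.3%, 88.5% and 75.6%. After seeing the data, members with under 2 copies were taken alone, with 94.0%, 95.9%, 95.8% and 91.9%, and those with a CpG ratio under 0.6, with 93.5%, 94.9%, 95.2% and 91.2%. Under the other settings these shares stayed within the counting interval. The median distance to a start ranged from 23569.5 to 29871 bp, the composite share from 0.389% to 0.987% and the share inside genes from 45.8% to 51.3%.

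No paired analysis was possible because each mark and state has 1 list that carries no replicate, and for the same reason no replicate was left out. Depth is unknown from peak positions.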
